A study of Mus musculus with 9 samples.

Results

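The cadherins and the epithelial-mesenchymal switch genes were followed here in differentiating mouse embryoid bodies (EBs). The set holds 10 genes, chosen by symbol, out of 55471 gene IDs counted: the cadherins *Cdh1*, *Cdh2* and *Cdh3*, the epithelial genes *Epcam*, *Ocln* and *Esrp1*, and the transcription factors *Snai1*, *Snai2*, *Zeb1* and *Zeb2*. EBs are aggregates in which embryonic stem (ES) cells start to differentiate. They were made from E14 ES cells in hanging drops over 3 days, plated on gelatin and kept for another 3 days of in vitro differentiation, and RNA was sequenced from 9 libraries in 3 groups of 3. WT_EB are EBs of the parental line, KO_EB are Tnfaip2-/- EBs, and KO_EB_PAPC are Tnfaip2-/- EBs supplemented with 8 μM palmitoyl-L-carnitine (PC), the carrier-bound form of palmitic acid, and 8 μM palmitic acid (PA) itself. The Tnfaip2-/- line is 1 CRISPR-Cas9 clone with an early stop codon in exon 2, so loss of *Tnfaip2* and any other feature of that clone cannot be told apart. The study's methods describe EB formation in ES cell medium without PA/PC and in MEF medium with PA/PC, so the medium of those 3 days and PA/PC cannot be told apart. WT EBs with PA/PC were not analysed here, so an effect of PA/PC that needs the knockout and one that does not cannot be told apart either. A figure legend of the study names a vehicle control for the sequenced Tnfaip2-/- EBs without PA/PC. Whether the sequenced WT EBs received the vehicle is not stated.

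Cadherins are transmembrane proteins that join neighbouring cells by binding calcium-dependently to their own kind, and catenins tie them to actin. E-cadherin (*Cdh1*) is the main adhesion molecule of ES cells and epithelia, whereas N-cadherin (*Cdh2*) marks neural and mesodermal cells, and the exchange of the first for the second accompanies epithelial-mesenchymal transition (EMT). The zinc-finger repressors encoded by *Snai1*, *Snai2*, *Zeb1* and *Zeb2* bind E-box sequences in epithelial promoters, and ESRP1 keeps the splicing pattern of epithelial cells.

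Promoter sequences from RefSeq (GRCm38.p6) are shown for *Epcam*, *Snai1*, *Zeb2* and *Ocln*, the 4 of the 10 genes matched in the promoter table used here, because E-boxes in such promoters are the sites that Snail and Zeb proteins are known to bind. Each window covers 250 bases before the transcript start on the gene's own strand. Capitals mark the letters CAGGTG or CACCT on either strand. The motifs overlap, since CAGGTG read on the other strand begins with CACCT. The windows are chr17:87635729-87635978 on the plus strand for *Epcam*, chr2:167537945-167538194 on the plus strand for *Snai1*, chr2:45117443-45117692 on the minus strand for the outermost start of *Zeb2*, and chr13:100552719-100552968 on the minus strand for the outer start of *Ocln*.
Epcam: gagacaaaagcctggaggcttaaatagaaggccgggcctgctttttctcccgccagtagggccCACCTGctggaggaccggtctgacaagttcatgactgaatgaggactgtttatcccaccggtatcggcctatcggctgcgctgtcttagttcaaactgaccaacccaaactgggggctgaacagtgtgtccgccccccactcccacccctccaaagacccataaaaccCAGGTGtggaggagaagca
Snai1: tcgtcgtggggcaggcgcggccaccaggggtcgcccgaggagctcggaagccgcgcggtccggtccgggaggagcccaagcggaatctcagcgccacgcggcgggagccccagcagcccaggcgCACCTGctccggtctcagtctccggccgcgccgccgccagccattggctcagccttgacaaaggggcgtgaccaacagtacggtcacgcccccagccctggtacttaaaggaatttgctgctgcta
Zeb2: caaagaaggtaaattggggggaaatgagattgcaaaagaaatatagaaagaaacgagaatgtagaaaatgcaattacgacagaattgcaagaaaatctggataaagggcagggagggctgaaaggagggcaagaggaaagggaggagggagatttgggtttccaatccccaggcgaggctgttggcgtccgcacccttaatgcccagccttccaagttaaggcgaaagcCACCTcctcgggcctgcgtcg
Ocln: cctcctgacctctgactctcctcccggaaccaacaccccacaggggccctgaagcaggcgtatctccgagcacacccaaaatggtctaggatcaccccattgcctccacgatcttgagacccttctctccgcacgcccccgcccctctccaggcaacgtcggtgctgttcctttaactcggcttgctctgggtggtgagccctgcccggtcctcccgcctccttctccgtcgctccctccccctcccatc
The *Epcam* window held CAGGTG 2 times, with first bases at -187 and -19, and the *Snai1* window held it 1 time, at -126. The *Zeb2* window held CACCT alone, at -21, and the *Ocln* window held neither. The other windows of these genes, before inner starts, differed: the inner window of *Ocln* held CAGGTG 2 times, and of the 4 windows of *Zeb2* 3 held CACCT and 0 held CAGGTG. Of 32817 promoter windows of the same length, 17.2% held CAGGTG and 46% held CACCT. These matches describe letters in the reference, and binding was not measured.

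Values are whole-number read counts per gene, given here as CPM, counts scaled by the total of their library, as mean ± SD over 3 libraries. Depth was even, with 27362913 to 28914312 counts per library. Group differences are log2 fold changes ± SE from edgeR's quasi-likelihood test, and a gene was called at a Benjamini-Hochberg adjusted p under 0.05 over all genes tested. *Tnfaip2* itself had 6 to 16 counts in WT_EB, 5 to 8 in KO_EB and 14 to 25 in KO_EB_PAPC, and was too low to be tested between KO_EB and WT_EB. The libraries labelled KO_EB_PAPC held more of it than those labelled KO_EB, by 1.72 ± 0.363 on the log2 scale (edgeR adjusted p = 5.49e-05), and more than WT_EB, by 0.95 ± 0.343 (edgeR adjusted p = 0.0164), which runs against a knockout label if the transcript is read as its measure. The second difference was not called by DESeq2 (adjusted p = 0.106), nor by edgeR without KO_EB_PAPC replicate 1 (adjusted p = 0.131) or without WT_EB replicate 2 (adjusted p = 0.101). An early stop codon need not lower a transcript, so the counts do not settle the label, and every direction below is that of the libraries labelled so. Pluripotency markers were abundant in all libraries, with 10 genes summing to 2286 CPM or more, and the fibroblast list summed to at most 24.0 CPM. In pooled EBs, fewer cells of a type and less RNA per cell cannot be told apart.

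All 10 genes passed the filter on low counts in each comparison. In KO_EB versus WT_EB, *Esrp1* rose 2.97-fold while *Cdh2* and *Zeb2* fell 2.62-fold and 2.87-fold. In KO_EB_PAPC versus KO_EB, *Cdh2* rose 5.61-fold and *Zeb2* 6.71-fold, while *Esrp1* fell 2.88-fold and *Snai1* 3.28-fold. *Cdh1* rose as well, by 1.49-fold, so the larger *Cdh2* level under PA/PC stood beside a larger and not a smaller *Cdh1* level. Relative to WT_EB, KO_EB_PAPC had 2.14-fold more *Cdh2*, 2.34-fold more *Zeb2*, 2.38-fold less *Ocln* and 2.42-fold less *Snai1*.

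Counts of calls need their background, because most genes of these EBs differed. In KO_EB versus WT_EB, 9 members were called, 4 higher and 5 lower, where 73.8% of all 17355 genes tested were called, 36.8% higher and 37.1% lower. In KO_EB_PAPC versus KO_EB, 8 were called, 5 higher and 3 lower, against 81.8% of 17167 genes, 39.6% higher and 42.2% lower. In KO_EB_PAPC versus WT_EB, 8 were called, 5 higher and 3 lower, against 70.6% of 16655 genes, 34.2% higher and 36.4% lower. With a tested minimum fold change of 2, 3 members were called in KO_EB versus WT_EB, 1 higher and 2 lower, against 9.14% of all genes, 5.36% higher and 3.79% lower. In KO_EB_PAPC versus KO_EB 4 were called, 2 higher and 2 lower, against 20.7%, 6.26% higher and 14.4% lower. In KO_EB_PAPC versus WT_EB 2 were called, *Zeb2* higher and *Ocln* lower, against 8.02%, 0.961% higher and 7.05% lower. The CPM of the groups did not overlap for 8 members in KO_EB versus WT_EB, 8 in KO_EB_PAPC versus KO_EB and 9 in KO_EB_PAPC versus WT_EB, beside 75.2%, 82.1% and 73% of all genes tested. The median log2 fold change of the members was -0.12, 0.18 and 0.21 in the 3 comparisons in that order, beside -0.01, -0.02 and -0.02 for all genes tested. Scaling by library totals moved the median of all genes by -0.17 and -0.16 in the 2 comparisons with KO_EB_PAPC and left the median of the members there at 0.012 and 0.044, and log2 fold changes there are relative to edgeR's TMM scaling. The share of calls that were higher went from 48.4% to 38.02% in KO_EB_PAPC versus KO_EB under that scaling and from 48.4% to 30.3% in KO_EB_PAPC versus WT_EB, while the members stayed at 5 higher and 3 lower in both. The comparisons share libraries, so they are not independent of each other.

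**Figure D1:**
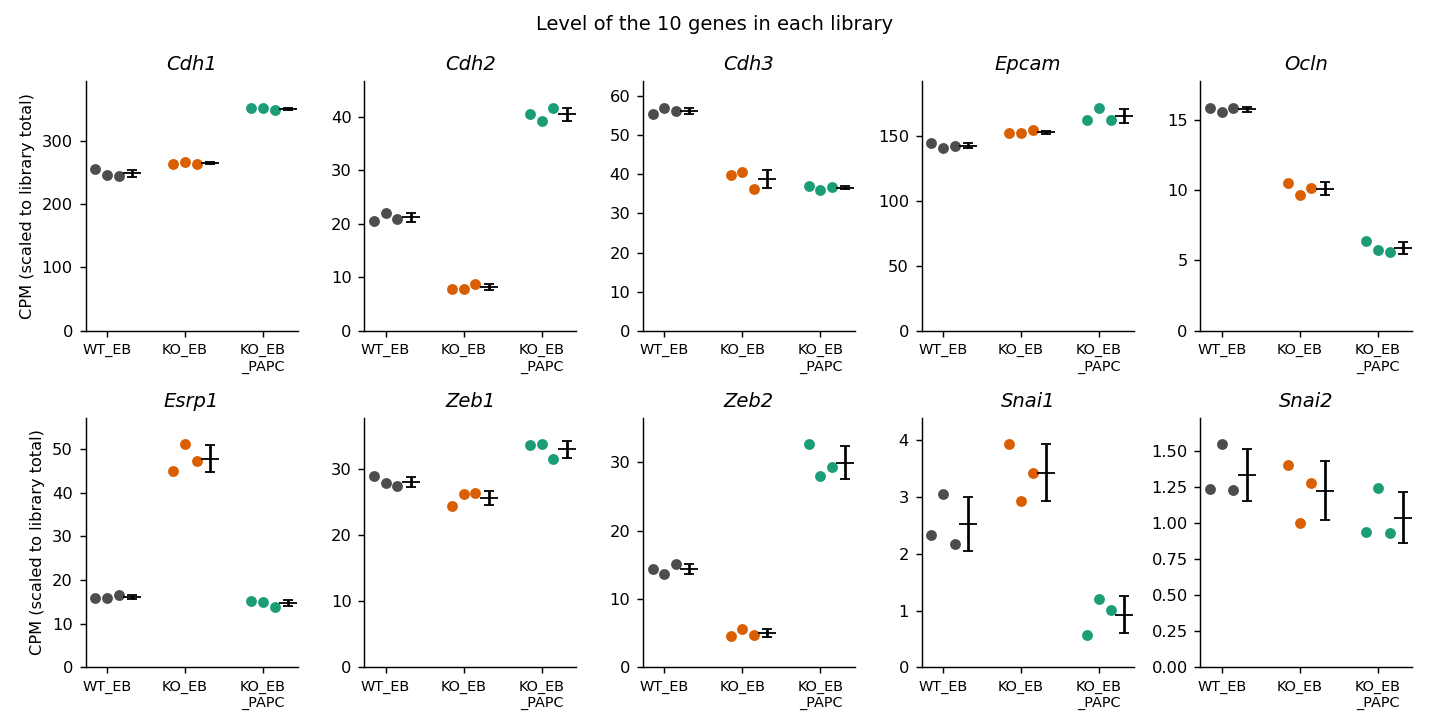
CPM of the 10 genes in each library, by group (points, 3 libraries per group), with the mean ± SD in black beside them; each panel has its own vertical axis, starting at 0. *Cdh2* and *Zeb2* have their lowest points in KO_EB and their highest in KO_EB_PAPC, *Esrp1* has its highest in KO_EB at 45.0 to 51 CPM, and the *Snai2* points of the 3 groups overlap.

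*Cdh1* (ENSMUSG00000000303, chromosome 8, 106603351 to 106670246, GRCm38) encodes E-cadherin. Its level was 254.7, 245.7 and 245.0 CPM in WT_EB, 263.0, 265.9 and 263.4 CPM in KO_EB and 352.0, 350.9 and 348.4 CPM in KO_EB_PAPC. The 3 groups did not overlap, and the spread within each was small, with SDs of 5.40, 1.57 and 1.83 CPM. The difference between KO_EB and WT_EB was called but small, at 0.09 ± 0.024 (edgeR adjusted p = 0.00138). That of KO_EB_PAPC was 0.57 ± 0.025 over KO_EB (edgeR adjusted p = 8.99e-22) and 0.66 ± 0.028 over WT_EB (edgeR adjusted p = 1.56e-16). The other genes of chromosome 8 moved too. The median log2 fold change of the 914 genes tested on chromosome 8 in KO_EB_PAPC versus KO_EB was 0.43, and in KO_EB versus WT_EB it was -0.23 over 919 genes. The part of these chromosome-wide shifts in the *Cdh1* and *Cdh3* values was not tested.

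*Cdh2* (ENSMUSG00000024304, chromosome 18, 16588877 to 16809246) encodes N-cadherin. WT_EB libraries held 20.6, 22.1 and 20.9 CPM, KO_EB libraries 7.81, 7.71 and 8.75 CPM, and KO_EB_PAPC libraries 40.5, 39.2 and 41.7 CPM. The groups stood wide apart, lowest in KO_EB and highest in KO_EB_PAPC. The log2 fold change was -1.39 ± 0.066 in KO_EB versus WT_EB (edgeR adjusted p = 3.37e-19). In KO_EB_PAPC it was 2.49 ± 0.060 over KO_EB (edgeR adjusted p = 7.65e-30), above that of 98.9% of the genes tested. Over WT_EB it was 1.10 ± 0.049 (edgeR adjusted p = 4.82e-16), which did not pass the test of a minimum fold change of 2 (edgeR adjusted p = 0.0912). The median of chromosome 18 stayed near 0 in all 3 comparisons, between -0.03 and 0.05.

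*Cdh3* (ENSMUSG00000061048, chromosome 8, 106510891 to 106557297) encodes P-cadherin, a cadherin of placenta and stratified epithelia, and lies next to *Cdh1*. Its level was 55.6, 57.1 and 56.2 CPM in WT_EB, 39.8, 40.6 and 36.3 CPM in KO_EB and 37.1, 36.1 and 36.7 CPM in KO_EB_PAPC. Both knockout groups lay below all WT_EB libraries and overlapped each other. It fell by 0.53 ± 0.041 on the log2 scale in KO_EB versus WT_EB (edgeR adjusted p = 1.52e-13) and by 0.45 ± 0.040 in KO_EB_PAPC versus WT_EB (edgeR adjusted p = 2.61e-10). The difference between the knockout groups was 0.08 ± 0.046 (edgeR adjusted p = 0.110) and was -0.09 under scaling by library totals. *Cdh3* thus lay below WT_EB in both knockout groups, unlike *Cdh1* and *Cdh2*, which were above WT_EB in KO_EB_PAPC.

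*Epcam* (ENSMUSG00000045394, chromosome 17, 87635979 to 87651129) encodes an epithelial adhesion molecule that ES cells also carry. WT_EB held 144.3, 140.5 and 141.9 CPM, KO_EB 152.5, 151.8 and 154.1 CPM, and KO_EB_PAPC 161.9, 171.5 and 161.9 CPM. The groups rose in that order without overlap and by little. The log2 fold changes were 0.10 ± 0.027 in KO_EB versus WT_EB (edgeR adjusted p = 7.56e-04), 0.28 ± 0.029 in KO_EB_PAPC versus KO_EB (edgeR adjusted p = 8.70e-11) and 0.38 ± 0.032 in KO_EB_PAPC versus WT_EB (edgeR adjusted p = 1.14e-10). The median of the 842 genes tested on chromosome 17 in KO_EB_PAPC versus KO_EB was 0.32, about as large as the *Epcam* value. In KO_EB versus WT_EB that median was -0.24 and in KO_EB_PAPC versus WT_EB 0.08, both unlike the *Epcam* values. The part of these chromosome-wide shifts in the *Epcam* values was not tested.

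*Ocln* (ENSMUSG00000021638, chromosome 13, 100496507 to 100552718) encodes occludin, a strand protein of tight junctions. Its level was 15.9, 15.6 and 15.8 CPM in WT_EB, 10.5, 9.67 and 10.2 CPM in KO_EB and 6.41, 5.74 and 5.599 CPM in KO_EB_PAPC. It was lower in KO_EB than in WT_EB and lower again with PA/PC, with no overlap between groups. It fell by 0.64 ± 0.065 on the log2 scale in KO_EB versus WT_EB (edgeR adjusted p = 1.22e-10), by 0.61 ± 0.086 in KO_EB_PAPC versus KO_EB (edgeR adjusted p = 5.31e-08) and by 1.25 ± 0.076 in KO_EB_PAPC versus WT_EB (edgeR adjusted p = 2.48e-13). The median of chromosome 13 was -0.17, 0.38 and 0.20 in these comparisons, so that *Ocln* moved against its chromosome in both that involve PA/PC.

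*Esrp1* (ENSMUSG00000040728, chromosome 4, 11331933 to 11386783) was at 15.8, 15.9 and 16.6 CPM in WT_EB, 45.0, 51 and 47.3 CPM in KO_EB and 15.3, 15.1 and 13.9 CPM in KO_EB_PAPC. All KO_EB libraries lay far above both other groups. The log2 fold change was 1.57 ± 0.052 in KO_EB versus WT_EB (edgeR adjusted p = 8.86e-24) and -1.53 ± 0.055 in KO_EB_PAPC versus KO_EB (edgeR adjusted p = 2.26e-24). KO_EB_PAPC and WT_EB differed by 0.04 ± 0.063 (edgeR adjusted p = 0.606), and by -0.13 under library totals, where it was not called either, although all KO_EB_PAPC libraries lay below all WT_EB libraries in CPM. *Esrp1* was the one member called with a minimum fold change of 2 as higher in KO_EB versus WT_EB.

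*Zeb2* (ENSMUSG00000026872, chromosome 2, 44983632 to 45117395) encodes a repressor of *Cdh1* that is also needed for ES cells to leave pluripotency and for neural development. Its level was 14.4, 13.6 and 15.1 CPM in WT_EB, 4.59, 5.64 and 4.81 CPM in KO_EB and 32.6, 28.03 and 29.3 CPM in KO_EB_PAPC. The lowest KO_EB_PAPC library lay above the highest of either other group. *Zeb2* fell by 1.52 ± 0.082 on the log2 scale in KO_EB versus WT_EB (edgeR adjusted p = 1.05e-17). In KO_EB_PAPC it was higher by 2.75 ± 0.077 than in KO_EB (edgeR adjusted p = 7.66e-28), above 99.2% of the genes tested, and by 1.23 ± 0.063 than in WT_EB (edgeR adjusted p = 7.08e-15). Other annotated genes, its antisense RNA among them, overlap 3.30% of its exon length, and the libraries do not keep strand.

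*Zeb1* (ENSMUSG00000024238, chromosome 18), which encodes the related repressor, moved less. Its level was 28.9, 27.9 and 27.4 CPM in WT_EB, 24.5, 26.3 and 26.4 CPM in KO_EB and 33.7, 33.7 and 31.5 CPM in KO_EB_PAPC. KO_EB_PAPC lay above both other groups, by 0.53 ± 0.049 over KO_EB (edgeR adjusted p = 4.35e-12) and by 0.40 ± 0.049 over WT_EB (edgeR adjusted p = 8.61e-08). The difference between KO_EB and WT_EB, -0.13 ± 0.049 (edgeR adjusted p = 0.0201), was not called by DESeq2 (adjusted p = 0.107), nor by edgeR without KO_EB replicate 1 (adjusted p = 0.126) or without WT_EB replicate 1 (adjusted p = 0.0569).

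*Snai1* (ENSMUSG00000042821, chromosome 2, 167538195 to 167542814) encodes Snail, the repressor that acts early in EMT at gastrulation. Libraries held 66, 85 and 60 counts in WT_EB, 112, 82 and 99 in KO_EB and 16, 33 and 28 in KO_EB_PAPC. The KO_EB_PAPC libraries were the lowest, while KO_EB and WT_EB overlapped. *Snai1* fell by 1.71 ± 0.191 on the log2 scale in KO_EB_PAPC versus KO_EB (edgeR adjusted p = 2.94e-10) and by 1.27 ± 0.213 in KO_EB_PAPC versus WT_EB (edgeR adjusted p = 9.65e-06). The difference of 0.44 ± 0.143 between KO_EB and WT_EB (edgeR adjusted p = 0.00619) was not called by DESeq2 (adjusted p = 0.0697), nor by edgeR without KO_EB replicate 1 (adjusted p = 0.0588) or without WT_EB replicate 3 (adjusted p = 0.0515).

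*Snai2* (ENSMUSG00000022676, chromosome 16), which encodes Slug, had the fewest counts of the members over the 9 libraries together, 34 to 43 in WT_EB, 28 to 40 in KO_EB and 26 to 34 in KO_EB_PAPC. The groups overlapped in all comparisons and no difference was called. The log2 fold changes were -0.12 ± 0.199 in KO_EB versus WT_EB (edgeR adjusted p = 0.591), -0.08 ± 0.218 in KO_EB_PAPC versus KO_EB (edgeR adjusted p = 0.745) and -0.20 ± 0.207 in KO_EB_PAPC versus WT_EB (edgeR adjusted p = 0.392). At this depth, changes of the size of these errors could not be detected.

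**Figure D2:**
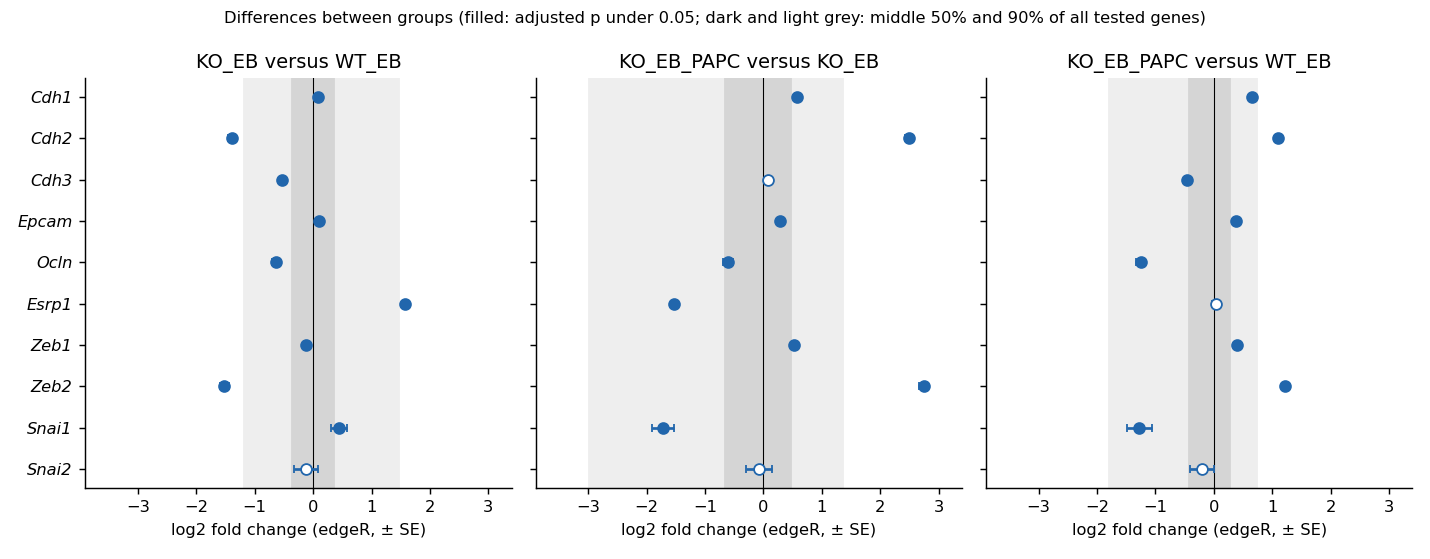
Log2 fold change ± SE (edgeR) of the 10 genes in the 3 comparisons, with filled points for adjusted p under 0.05 and grey bands for the middle 50% and 90% of all genes tested. *Cdh2* and *Zeb2* lie left of the 90% band in KO_EB versus WT_EB, at -1.39 and -1.52, and right of it in both comparisons of KO_EB_PAPC, at 2.49 and 2.75 against KO_EB.

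Levels can be set against each other only per length. In CPM per kilobase of exon, *Epcam* and *Cdh1* were far above the rest in every group, with 64.8 ± 0.880 and 54.3 ± 1.18 in WT_EB, 69.6 ± 0.558 and 57.7 ± 0.343 in KO_EB and 75.2 ± 2.54 and 76.6 ± 0.400 in KO_EB_PAPC. *Cdh1* and *Epcam* overlapped in KO_EB_PAPC alone. *Cdh3* came next throughout, at 12.8, 8.88 and 8.36 CPM per kilobase.

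Below *Cdh3*, the order differed between the groups. In WT_EB, *Ocln* at 3.73 CPM per kilobase was followed by *Zeb1*, *Cdh2* and *Esrp1* at 2.73, 2.63 and 2.55, neighbours whose libraries overlapped, then by *Snai1* at 1.55 and by *Zeb2* and *Snai2* at 0.720 and 0.662, which overlapped. In KO_EB, *Esrp1* at 7.57 stood above *Zeb1*, *Ocln* and *Snai1* at 2.50, 2.398 and 2.11, where neighbours overlapped, and *Cdh2*, *Snai2* and *Zeb2* closed the order at 1.003, 0.607 and 0.251. In KO_EB_PAPC, *Cdh2* came next at 5.02, above *Zeb1* at 3.21 and *Esrp1* at 2.34. *Zeb2* and *Ocln* followed at 1.503 and 1.401 and overlapped, as did *Snai1* and *Snai2* at 0.573 and 0.513. By the length of the longest transcript in place of all exons, *Ocln* moved from rank 4 to rank 7 in WT_EB, *Esrp1* passed *Cdh3* in KO_EB, and *Epcam* passed *Cdh1* in KO_EB_PAPC.

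The ratio of *Cdh2* to *Cdh1* within a library does not depend on scaling between libraries. Per kilobase, its log2 was -4.45, -4.30 and -4.37 in WT_EB, -5.89, -5.93 and -5.73 in KO_EB and -3.94, -3.98 and -3.88 in KO_EB_PAPC. The groups did not overlap, with means of -4.37 ± 0.077, -5.85 ± 0.105 and -3.93 ± 0.049. *Cdh1* was thus 20.7 times as abundant as *Cdh2* in WT_EB, 57.8 times in KO_EB and 15.3 times in KO_EB_PAPC, or 12.8, 35.8 and 9.48 times by the length of the longest transcript. The *Cdh1* transcript remained the more abundant one in all 9 libraries, also by counts and by the longest transcript.

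**Figure D3:**
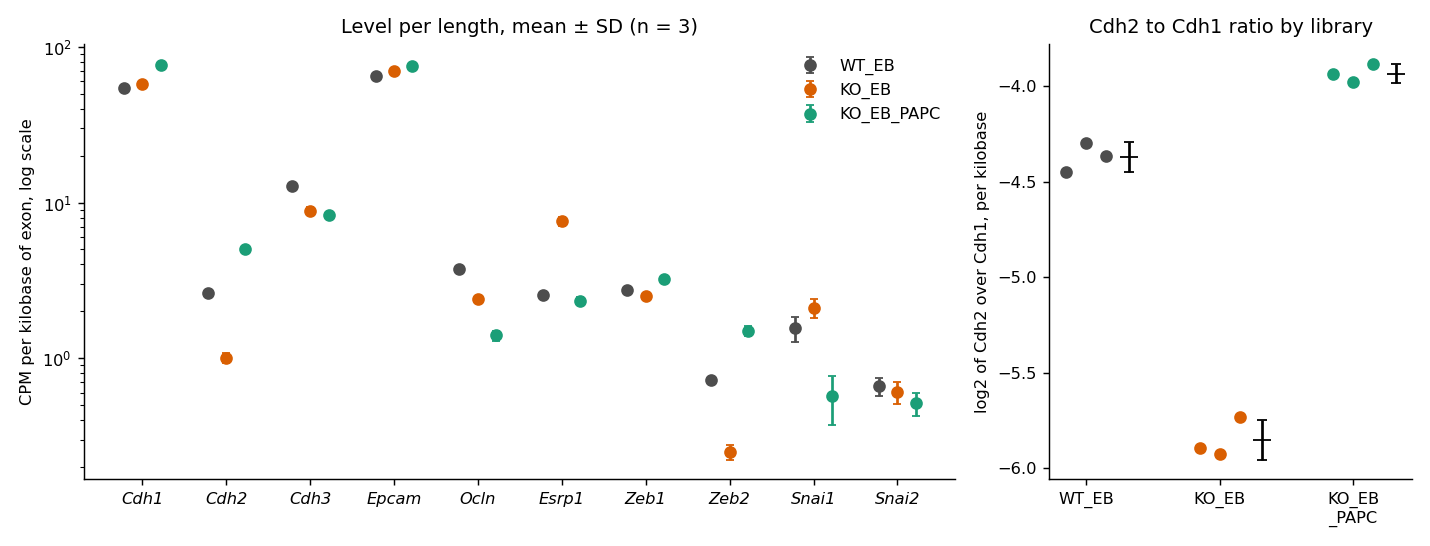
Left, CPM per kilobase of exon of the 10 genes on a log axis, mean ± SD over 3 libraries per group; right, log2 of the *Cdh2* to *Cdh1* ratio per kilobase in each library with the mean ± SD in black. *Cdh1* and *Epcam* lie at 54.3 or above in every group, and the ratio is lowest in KO_EB (-5.85) and highest in KO_EB_PAPC (-3.93).

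Genes were ranked by how near their pattern lay to that of *Cdh1* or *Cdh2*, by the distance between log2 CPM centred over the 9 libraries, among 9790 other genes whose mean was 10 CPM or more. The nearest to *Cdh2* were *Efnb2*, *Ccng2* and *Gm5452*. *Efnb2*, which encodes an ephrin, was at 96.6 ± 0.380 CPM in WT_EB, 33.7 ± 1.64 in KO_EB and 189.5 ± 5.08 in KO_EB_PAPC. *Zeb2* ranked 19 in nearness to *Cdh2*. The nearest to *Cdh1* were *Lbr*, *Wasf1* and *Gm4737*, and of the members *Zeb1* ranked 542 and *Epcam* 793.

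The genes around the members were read from 7 lists, of which the 3 genes with the largest change in KO_EB_PAPC versus KO_EB and at least 5 CPM are named. A gene could pass the filter on low counts through its higher group alone, so the tested genes and their directions depend partly on the filter. Calls in these lists, and in the marker lists below, stand beside the shares of all genes tested. By edgeR with TMM scaling, these were 36.8% higher and 37.1% lower in KO_EB versus WT_EB, and 39.6% and 42.2% in KO_EB_PAPC versus KO_EB. In KO_EB_PAPC versus WT_EB they were 34.2% and 36.4%. Of 19 other cadherins, 11 were high enough to test in KO_EB versus WT_EB, and 9 of these were lower and 0 higher, with a median log2 fold change of -1.01. In KO_EB_PAPC versus KO_EB, 7 of 9 tested were higher and 2 lower, with a median of 1.20. By DESeq2, over more of them, 7 of 18 were lower and 0 higher in KO_EB versus WT_EB, with a median of -0.72. In KO_EB_PAPC versus KO_EB, 6 of 17 were higher and 1 lower by DESeq2, with a median of 0.47. Of all 23744 genes tested by DESeq2 in KO_EB versus WT_EB, 5764 were higher and 5685 lower. Of 25247 in KO_EB_PAPC versus KO_EB, 6274 were higher and 7271 lower. *Cdh11*, a cadherin of mesenchyme, was at 5.16 ± 0.197 CPM in WT_EB, 0.526 ± 0.067 in KO_EB and 5.19 ± 0.345 in KO_EB_PAPC. It rose by 3.46 ± 0.172 with PA/PC on the log2 scale (edgeR adjusted p = 5.30e-20), and *Cdh6* and *Cdh24* rose by 1.24 and 0.78. In KO_EB_PAPC versus WT_EB, 4 of 10 were higher and 1 lower. Without KO_EB_PAPC replicate 3 that count of 5 called became 3, and under library totals 2 were higher and 2 lower. Under library totals, 3631 of all 16655 genes tested were higher and 8334 lower in KO_EB_PAPC versus WT_EB. In KO_EB_PAPC versus KO_EB, 5323 of 17167 were higher and 8677 lower under that scaling.

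Catenins and other adherens junction partners did not move one way. Of 12 tested, 7 were higher and 4 lower in KO_EB versus WT_EB, and 6 were higher and 6 lower in KO_EB_PAPC versus KO_EB, or 3 and 6 under library totals. *Ctnnb1*, which encodes the β-catenin that binds E- and N-cadherin, was abundant and changed little, with 895.8 CPM in WT_EB, 1044 in KO_EB and 834.5 in KO_EB_PAPC. *Ctnnd2*, a δ-catenin of neural cells, rose by 1.62 ± 0.078 on the log2 scale in KO_EB_PAPC versus KO_EB (edgeR adjusted p = 1.87e-20). *Vcl* (vinculin) fell by 1.21 and *Jup* (plakoglobin) by 0.84. *Vcl* and *Ctnnb1* share 25.5% and 15.1% of their exon length with other genes, so their counts are less certain.

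The epithelial lists moved mostly down with PA/PC, as *Ocln* and *Esrp1* did and *Cdh1* and *Epcam* did not. Of 16 tight junction and polarity genes, 10 were lower and 5 higher in KO_EB_PAPC versus KO_EB, with a median log2 fold change of -0.45, and *Cldn4* fell by 2.75 and *Llgl2* by 1.33, while *Pard3* rose by 0.78. Of 7 desmosome genes tested, 5 were lower and 2 higher, with a median of -1.99, and *Dsp*, *Perp* and *Dsc2* fell by 2.60, 2.36 and 2.10. Of 16 epithelial regulators and surface proteases tested, 15 were lower and 1 higher, with a median of -0.82. *Rbm47*, a splicing regulator, fell by 3.78 ± 0.068 (edgeR adjusted p = 8.84e-34), and the transcription factor genes *Elf3* and *Grhl3* fell by 2.23 and 1.99. Over all genes tested in KO_EB_PAPC versus KO_EB, the log2 fold change had a median of -0.02 and a 5th percentile of -2.98. Of the falls named in these lists, that of *Rbm47* alone lay beyond that percentile, and those of *Cldn4*, *Dsp* and the others did not. *Krt8* and *Krt18*, keratins of simple epithelia, fell by 0.71 and 0.41. Of the 51-base stretches of *Krt8*, 29.5% also occur in other genes, so its counts are less certain. In KO_EB versus WT_EB the same lists were mixed, with 8 higher and 6 lower, 3 higher and 1 lower, and 8 higher and 8 lower.

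The list of other EMT transcription factors also holds *Id1*, *Id2* and *Id3*, which encode inhibitors of such factors. Of its 12 genes tested, 3 were higher and 7 lower in KO_EB versus WT_EB. In KO_EB_PAPC versus KO_EB, 7 were higher and 3 lower. *Id1* was at 65.3 CPM in WT_EB, 26.9 in KO_EB and 64.5 in KO_EB_PAPC, and *Id3* at 24.4, 15.1 and 42.1. *Id2*, an inhibitor of basic helix-loop-helix factors, rose by 3.16 ± 0.043 with PA/PC (edgeR adjusted p = 1.83e-37) and *Lef1* by 2.13, while *Foxq1*, 66.1% of which overlaps another gene, fell by 2.21. Of the mesenchymal effectors, 12 of 14 tested were lower and 1 higher in KO_EB versus WT_EB, with a median of -0.52, and 10 of 16 were higher and 4 lower in KO_EB_PAPC versus KO_EB, with a median of 0.57. *Vim*, which encodes the intermediate filament vimentin, was at 204.7 ± 0.488 CPM in WT_EB, 49.9 ± 0.943 in KO_EB and 383.9 ± 10.3 in KO_EB_PAPC. *Acta2* (smooth muscle actin) rose by 5.11 with PA/PC from 0.457 CPM, and *Pdgfra*, a receptor of mesoderm and primitive endoderm, fell by 2.34. In KO_EB_PAPC versus WT_EB, 9 mesenchymal effectors were higher and 5 lower, or 6 and 7 under library totals.

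**Figure D4:**
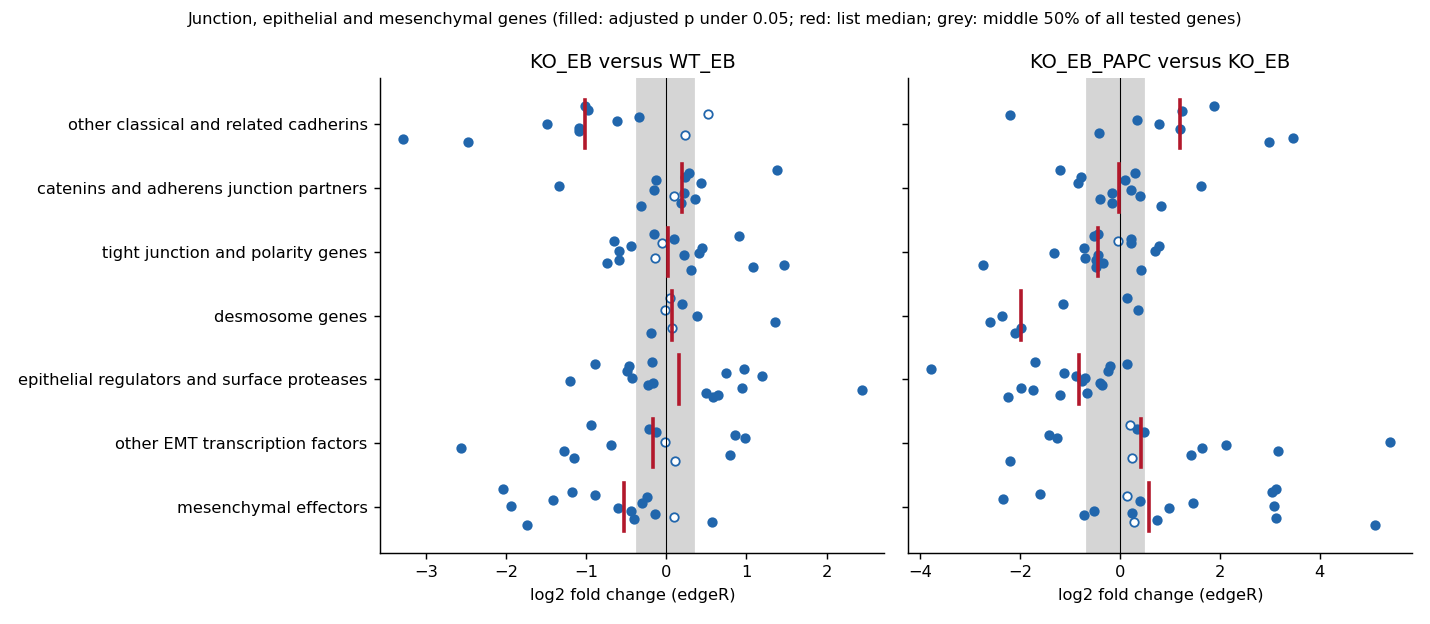
Log2 fold change (edgeR) of each tested gene of the 7 lists in KO_EB versus WT_EB and KO_EB_PAPC versus KO_EB, with filled points for adjusted p under 0.05, a red bar for the list median and a grey band for the middle 50% of all genes tested. The other cadherins have medians of -1.01 and 1.20, and the desmosome genes and epithelial regulators have medians of -1.99 and -0.82 in KO_EB_PAPC versus KO_EB.

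Markers of cell types that EBs can hold differed between the groups too. The members shared no single pattern, and a marker sum is set below beside the members with the same order of groups. The summed level of 8 neuroectoderm markers was 261.5 to 263.3 CPM in WT_EB, 76.4 to 81.3 in KO_EB and 459.2 to 465.0 in KO_EB_PAPC, the order also seen for *Cdh2* and *Zeb2*. Of the 6 tested, 5 were lower and 1 higher in KO_EB versus WT_EB, and 6 were higher in KO_EB_PAPC versus KO_EB. The 5 primed epiblast markers summed to 516.5 to 523.8, 401.4 to 415.0 and 1120 to 1158 CPM, and all 5 were higher in KO_EB_PAPC versus KO_EB.

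The 10 pluripotency markers summed to 2597 to 2644 CPM in WT_EB, 4394 to 4421 in KO_EB and 2286 to 2335 in KO_EB_PAPC, highest in the group with the highest *Esrp1*. In KO_EB versus WT_EB 9 were higher and 0 lower, and in KO_EB_PAPC versus KO_EB 9 were lower and 1 higher. The latter was *Pou5f1*, at 684.1 CPM in WT_EB, 695.5 in KO_EB and 843.0 in KO_EB_PAPC. In KO_EB_PAPC versus WT_EB, 3 were higher and 7 lower. The sum of the 8 trophoblast markers was highest in KO_EB too, at 327.5 to 334.1 CPM against 95.3 to 96.6 in WT_EB and 61.6 to 66.2 in KO_EB_PAPC, but *Tfap2c* alone gave 294.1 CPM of it. Of the 7 tested, 3 were higher and 1 lower in KO_EB versus WT_EB. The 10 primitive and visceral endoderm markers summed to 488.0 to 501.2, 266.6 to 273.9 and 34.8 to 36.0 CPM, falling in the order in which *Ocln* fell. Of these, 8 were lower and 2 higher in KO_EB versus WT_EB, *Afp* and *Ttr* being higher by 1.21 and 0.50 on the log2 scale, and 10 of 10 were lower in KO_EB_PAPC versus KO_EB. The 8 primitive streak and mesoderm markers summed to 41.0 to 44.8 CPM in WT_EB, 35.8 to 37.3 in KO_EB and 50.2 to 53.0 in KO_EB_PAPC, again in the order of *Cdh2* and *Zeb2*. Of the 7 tested in KO_EB versus WT_EB, 2 were higher and 4 lower, and of the 6 tested in KO_EB_PAPC versus KO_EB, 4 were higher and 2 lower. *T* (brachyury), a defining marker of the streak, was at 1.91 CPM in WT_EB, 0.292 in KO_EB and 15.5 in KO_EB_PAPC, in the order of the sum. *Eomes*, the largest part of the sum, was highest in WT_EB, at 34.7 CPM, with 22.5 in KO_EB and 29.1 in KO_EB_PAPC. *Kdr* and *Hand1* were highest in KO_EB, at 6.42 and 4.53 CPM. Of the 6 tested in KO_EB_PAPC versus WT_EB, 2 were higher and 2 lower, with a median log2 fold change of -0.08. Surface ectoderm markers (5 genes) summed to at most 7.10 CPM in any library. No marker of these lists was at 0 in all libraries of a group except *Krt5* of surface ectoderm in KO_EB_PAPC and *Lum* of the fibroblast list in KO_EB. The part of any of these cell types in the levels of the 10 genes was not tested.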

How the data were processed

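RNA-seq of 9 EB libraries (3 each of WT_EB, KO_EB and KO_EB_PAPC, grouped and numbered by their titles) was used. The authors sequenced unstranded TruSeq RNA v2 libraries with 51-cycle single-end reads. Per the labels, bcl2fastq 2.20.0.422, STAR 2.7.2b and featureCounts 1.6.5 were used with GRCm38. The study's methods name another aligner, TopHat2, for WT_EB and KO_EB, but all columns lay in 1 table. The deposited counts were whole numbers per Ensembl gene, not normalized, and reads mapped to or overlapping several features were not counted. Columns of per-sample values left unused numbered 0. Symbols, positions and lengths came from GENCODE M21, and 241 IDs had no match. No 2 replicates agreed within sampling noise (chi-square of their counts, for genes with 20 or more in both together). The chi-square per degree of freedom, 1 under sampling noise alone, was 1.22 to 3.45. The study calls them biological replicates, and p-values measure the spread between these libraries.

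Each contrast was fitted on its 6 libraries with the edgeR 4.0.16 quasi-likelihood test in R 4.3.3 (TMM, filterByExpr, Benjamini-Hochberg), and SE was derived from the F statistic. The test was checked on simulated counts of KO_EB versus WT_EB in which few genes changed. Most genes of these EBs were called, so that check does not cover scaling or calls in this setting. CPM used library totals. The levels per kilobase used the union of exons. Alternatives were DESeq2 1.42.0, RLE size factors, library totals, no filter, a mean of at least 10 counts, a joint fit, a replicate block, a minimum fold change of 2 and each replicate left out. The 10 members, the gene lists, the marker lists and the tests were chosen with earlier results of these data known. Chromosome medians and the order of levels were added after the values were seen. Named genes were the members, *Tnfaip2*, *Ctnnb1*, *Vim*, *Krt8*, *Krt18*, 3 genes per list with the largest change in KO_EB_PAPC versus KO_EB (called, at least 5 CPM in the higher group), and the 3 genes nearest to *Cdh1* and to *Cdh2*. *Tfap2c*, *Afp*, *Ttr*, *T*, *Eomes*, *Kdr*, *Hand1*, *Pou5f1*, *Krt5*, *Lum*, *Id1* and *Id3* were named after their values were seen.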

Additional observations from a re-analysis of the deposited data

How the results depend on the processing

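Of 420 alternative values of the members' log2 fold changes, 392 kept their direction and their side of the threshold, 22 kept the direction but were no longer called and 6 reversed. The number of members called was 3, 4 and 2 with a minimum fold change of 2 in KO_EB versus WT_EB, KO_EB_PAPC versus KO_EB and KO_EB_PAPC versus WT_EB, since small changes cannot pass that test, and 7 to 9, 8 to 8 and 8 to 8 with each replicate left out. With each replicate left out, 12383 to 12820 of 17675 to 17805 genes tested were called in KO_EB versus WT_EB. For KO_EB_PAPC, 13785 to 14137 of 17488 to 17638 were called versus KO_EB. Versus WT_EB, 11208 to 11654 of 16947 to 17133 were called. The 6 reversed values were of differences that were not called. For *Snai2* (ranges with replicates left out -0.226 to 0.00485 and -0.217 to 0.0238) they were 0.00485 without KO_EB replicate 2 in KO_EB versus WT_EB, and 0.0238 without KO_EB replicate 1, 0.000823 without KO_EB_PAPC replicate 1 and 0.00115 without KO_EB_PAPC replicate 3 in KO_EB_PAPC versus KO_EB. Under library totals they were -0.0869 for *Cdh3* in KO_EB_PAPC versus KO_EB and -0.127 for *Esrp1* in KO_EB_PAPC versus WT_EB. Of 1036 values of the other named genes, 982 kept call and direction, 51 were no longer called and 3 reversed, *Lef1* to 0.00296 (lowest -0.0178 with another left out) without KO_EB replicate 3 in KO_EB versus WT_EB and, under library totals in KO_EB_PAPC versus WT_EB, *Cdh24* to -0.0014, from a call to none, and *Ctnnb1* to -0.102, from called higher (adjusted p = 0.0229) to called lower (adjusted p = 0.000417, edgeR). The log2 ratio of *Cdh2* to *Cdh1* was -3.68, -5.16 and -3.24 in WT_EB, KO_EB and KO_EB_PAPC by longest transcript and -3.55, -5.03 and -3.12 by counts, shifted by the lengths used, and ranged from -4.41 to -4.33, -5.91 to -5.81 and -3.96 to -3.91 with replicates left out. Under library totals, the median of all genes moved by -0.166 in KO_EB_PAPC versus KO_EB and by -0.164 in KO_EB_PAPC versus WT_EB. Beyond the settings named, the cause of the reversals was not tested. Replicate numbers did not pair the samples in KO_EB versus WT_EB or in KO_EB_PAPC versus KO_EB. Deviations of same-numbered libraries correlated there at -0.132 to -0.0163 over 14206 genes, and 0 of 6 libraries correlated best with their own number. In KO_EB_PAPC versus WT_EB these correlations were 0.195, 0.122 and 0.000285, and 4 of 6 libraries correlated best with their own number. The numbers may therefore pair some libraries of that comparison. With a replicate block, 9, 8 and 8 members were called, beside 12587 of 17355, 13822 of 17167 and 12223 of 16655 genes tested. Depth limits *Snai1* and *Snai2*, with 112 counts or fewer per library.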
